A study of Mus musculus with 12 samples.

Results

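The antiviral interferon-stimulated genes described here are 39 genes listed by name, the sensors, transcription factors and effector proteins that cells make when interferon signals to them. Of the 39, 37 were found in the deposited table by symbol, out of 19212 genes. Mx1 and Mx2, which encode GTPases that act against viruses, were not analysed here. The list names genes by function and sets no threshold on a measured value. All 37 are accounted for below by their role.

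Interferons are secreted proteins that bind receptors on the cell surface and switch on the JAK kinases. With type I and type III interferons the kinases activate a complex that holds STAT2 and IRF9 and binds a promoter sequence called the ISRE (interferon-stimulated response element). Interferon gamma acts at another sequence, the GAS element. In a lung tumour these genes can be transcribed by tumour cells, lung epithelium, endothelium and leukocytes alike.

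RNA was measured in 12 mouse libraries, 3 in each of 4 groups, all labelled lung cancer and all made from tumours of LLC cells (Lewis lung carcinoma, a transplantable mouse lung tumour line). SFD@M libraries came from tumours of mice given SFD@M, a preparation that the labels do not describe further. OTUB1_KD libraries came from orthotopic tumours of LLC cells that carried a lentivirus against Otub1, the gene of an enzyme that removes ubiquitin. Blank libraries came from tumours of mice given physiological saline, and no lentivirus is named for their cells or for those of SFD@M. The titles of the Blank libraries carry codes that begin with KD, while those of OTUB1_KD carry codes that begin with sh. What the KD codes stand for is not stated, and the groups here follow the titles and treatment labels. NC libraries came from orthotopic tumours of LLC cells with a negative control lentivirus, so both groups of the knockdown experiment carried a virus. The labels give no strain, age, dose or time. The labels do not tie the 3 libraries of a group to different animals. The p-values therefore reflect the spread among these samples alone, and that spread may be technical.

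The libraries differed in makeup before any interferon gene is considered. Totals were 16062806 to 18028828 counts. Ptprc, which encodes the leukocyte marker CD45, was at 209 to 227 CPM (counts scaled to the library total) in SFD@M and 154 to 239 CPM in OTUB1_KD libraries, against 0 to 0.0583 CPM in Blank and 0 to 0.187 CPM in NC libraries. Alveolar markers such as Sftpc summed to 22985 to 25360.4 CPM in SFD@M and 10343 to 25601 CPM in OTUB1_KD, against 11.04 to 11.65 CPM in Blank and 15.3 to 18.7 CPM in NC. The labelled lung cancer tissue of the Blank and NC libraries thus held almost none of the defining transcripts of lung epithelium or leukocytes. Y-linked transcripts, set against the NC mean as a measure of tumour cell RNA, were at 0.0511 to 0.476% in SFD@M, 0.184 to 36.9% in OTUB1_KD and 107 to 109% in Blank. By this measure the SFD@M libraries held almost no tumour cell RNA, and the OTUB1_KD libraries differed widely among themselves. Otub1 was at 57.8, 47.5 and 71.7 CPM in OTUB1_KD libraries and 76.9, 74.4 and 70.2 CPM in NC libraries, so the ranges overlapped. In SFD@M, for which no lentivirus is named, Otub1 was at 46.3, 45.2 and 47.8 CPM, against 79.4, 74.7 and 74.9 CPM in Blank. In bulk samples, fewer cells of a type and less RNA per cell cannot be told apart. How much of each difference within an experiment goes with this change of makeup was not tested.

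The ISRE shows in the promoters of many members. A promoter window of 250 bases before the start was at hand for 30 of the 37 members, taken from RefSeq (GRCm38.p6), and was searched on both strands for the ISRE core, which is GAAA, then 2 bases of any kind, then GAAA. The core occurred in 12 of the 30 members (40%), against 936 of 27025 genes (3.46%) with a window. The longer form, in which CT follows the core, occurred in 8 of the 30, against 0.255% of genes, and the GAS core (TTC, 3 bases of any kind, GAA) in 7 of the 30, against 8.13% of genes. The near copies Ifit3 and Ifit3b held the same core letters, as did Apol9a and Apol9b. Each of these genes was counted separately for the core and the longer form, so the occurrences are not all independent. Each window below ends at the base before the start and is written 5′ to 3′ on the gene's strand, with the ISRE core in capitals. These 6 were chosen to show how cores lie in the gene families that recur below.
Isg15, chr4:156200819-156201068, minus strand: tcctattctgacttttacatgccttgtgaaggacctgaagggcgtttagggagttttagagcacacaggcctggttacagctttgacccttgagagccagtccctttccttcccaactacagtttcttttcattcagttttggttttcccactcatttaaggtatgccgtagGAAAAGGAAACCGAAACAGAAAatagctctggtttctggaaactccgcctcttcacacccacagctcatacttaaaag
Ifit1, chr19:34640639-34640888, plus strand: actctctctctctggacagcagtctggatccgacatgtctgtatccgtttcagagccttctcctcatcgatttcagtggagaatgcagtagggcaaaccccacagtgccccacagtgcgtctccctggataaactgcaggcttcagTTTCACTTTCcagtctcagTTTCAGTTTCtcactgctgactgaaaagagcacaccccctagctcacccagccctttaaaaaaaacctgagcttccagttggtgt
Ifit3, chr19:34583279-34583528, plus strand: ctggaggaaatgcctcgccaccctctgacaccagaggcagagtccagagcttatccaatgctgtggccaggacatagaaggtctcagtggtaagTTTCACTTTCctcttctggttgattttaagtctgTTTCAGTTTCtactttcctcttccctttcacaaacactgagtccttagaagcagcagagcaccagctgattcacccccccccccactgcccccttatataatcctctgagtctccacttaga
Oas1a, chr5:120907526-120907775, minus strand: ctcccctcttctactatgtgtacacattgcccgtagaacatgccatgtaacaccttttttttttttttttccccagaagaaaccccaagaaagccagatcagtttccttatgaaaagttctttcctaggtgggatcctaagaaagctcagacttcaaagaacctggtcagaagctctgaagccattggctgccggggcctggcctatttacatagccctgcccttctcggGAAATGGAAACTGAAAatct
Ddx60, chr8:61927837-61928086, plus strand: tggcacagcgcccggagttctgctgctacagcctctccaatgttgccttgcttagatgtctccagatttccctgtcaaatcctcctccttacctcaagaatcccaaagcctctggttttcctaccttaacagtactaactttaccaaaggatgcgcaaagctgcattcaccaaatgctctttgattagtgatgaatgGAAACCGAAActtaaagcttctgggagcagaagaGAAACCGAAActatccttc
Apol9b, chr15:77728822-77729071, plus strand: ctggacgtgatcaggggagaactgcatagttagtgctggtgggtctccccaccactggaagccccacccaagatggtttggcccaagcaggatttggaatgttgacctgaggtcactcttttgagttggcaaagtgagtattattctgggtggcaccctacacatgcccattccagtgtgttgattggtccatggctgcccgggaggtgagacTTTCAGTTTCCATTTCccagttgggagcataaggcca
Isg15 held 3 overlapping cores that began 78, 72 and 66 bases before the start. Ifit1 and Ifit3 each held a pair of cores on the opposite strand, shown in capitals as the reverse complement (TTTC, 2 bases, TTTC). In Oas1a an overlapping pair began 20 and 14 bases before the start, and in Ddx60 the cores began 53 and 19 bases before it. A match is a description of the letters and not of a bound site.

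Levels of the members differed widely within every group. On the TPM scale, which corrects for transcript length and so allows genes to be compared, the 37 members summed to 889 to 1214 TPM in SFD@M, 1453 to 1828 TPM in OTUB1_KD, 617 to 639 TPM in Blank and 502 to 514 TPM in NC libraries. Bst2, which encodes tetherin, a membrane protein that holds budding virus at the cell surface, had the highest group mean in all 4 groups. It averaged 123 ± 39.8 TPM in SFD@M, 303 ± 133 TPM in OTUB1_KD, 197 ± 9.20 TPM in Blank and 181 ± 2.56 TPM in NC (SD, n = 3 each). In SFD@M, Samhd1 was close to Bst2, at 119 ± 11.4 TPM. In SFD@M replicate 1, Bst2 (78.9 TPM) lay below Samhd1 (128 TPM) and Irf1 (88.5 TPM). All 37 members reached 1 TPM in every SFD@M and OTUB1_KD library, 34 did in every Blank library, and 29 or 30 did in NC libraries. Ifit3 ranked 4 among the members in SFD@M and 5 in OTUB1_KD, at 58.7 ± 11.1 TPM and 67.5 ± 19.9 TPM, but averaged 1.27 ± 0.0700 TPM in Blank and 1.22 ± 0.0907 TPM in NC.

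**Figure D1:**
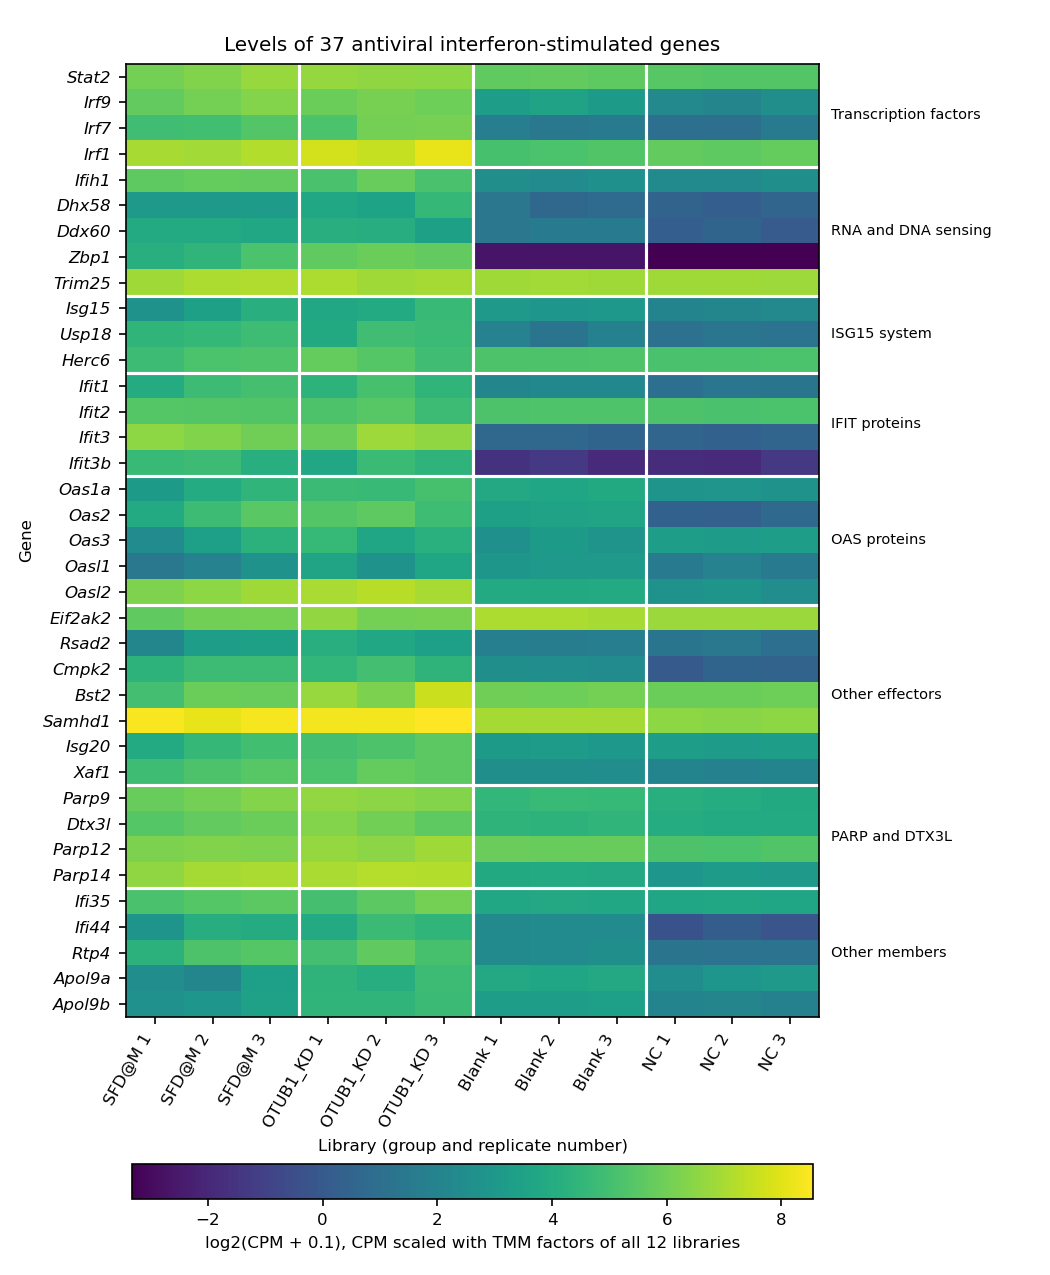
Heatmap of the level of 37 members (rows, grouped by role) in 12 libraries (columns), as log2 of TMM-scaled CPM plus 0.1. The SFD@M and OTUB1_KD columns are brighter than the Blank and NC columns for most rows, while Bst2, Trim25 and Eif2ak2 are bright in all 4 groups.

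Members of the transcription factor group, which carry the interferon signal to the genome, are given first, as TMM-scaled CPM. Irf9 stood at 51.7, 66.4 and 80.8 CPM in SFD@M, 58.3, 68.5 and 59.9 CPM in OTUB1_KD, 9.52, 11.3 and 8.85 CPM in Blank and 4.71, 4.07 and 5.72 CPM in NC libraries. All 3 groups other than NC lay above NC, and SFD@M and OTUB1_KD lay far above Blank. Stat2 was measured at 67.2, 79.4 and 104 CPM in SFD@M libraries, 102, 96.7 and 91.3 CPM in OTUB1_KD libraries, 49.8, 51.6 and 48.4 CPM in Blank libraries and 44.03, 41.99 and 41.6 CPM in NC libraries. Stat2, the partner of IRF9, also had SFD@M and OTUB1_KD above Blank and Blank above NC, over a much smaller range. For Irf7 the levels were 29.6, 30.8 and 40.7 CPM in SFD@M, 36.8, 66.5 and 69.2 CPM in OTUB1_KD, 3.25, 2.60 and 2.97 CPM in Blank and 1.95, 1.97 and 2.74 CPM in NC. Irf7, which drives interferon alpha genes, was high in SFD@M and OTUB1_KD, and its Blank and NC libraries overlapped. In SFD@M, Irf1 had 128, 118 and 147 CPM, in OTUB1_KD 213, 182 and 283 CPM, in Blank 34.4, 36.7 and 40.6 CPM and in NC 52.01, 47.8 and 53.2 CPM. Irf1, a factor that responds strongly to interferon gamma, was the exception, since its Blank libraries all lay below NC. The log2 fold change of Blank over NC was 1.01 ± 0.12 (SE) for Irf9, with a quasi-likelihood adjusted p of 6.75e-12, and 0.21 ± 0.05 for Stat2, with an adjusted p of 3.29e-05. For Irf1 it was -0.47 ± 0.05 (adjusted p = 6.01e-13), and for Irf7 0.38 ± 0.18 (adjusted p = 0.0542, not called). All 4 were higher in OTUB1_KD than in NC and in SFD@M than in Blank, by log2 fold changes of 1.15 to 4.65 and 0.75 to 3.52, in pairs where 39.9% and 49.5% of all genes tested were higher.

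The sensors detect viral nucleic acid inside the cell. Ifih1 stood at 48.8, 53.9 and 52.3 CPM in SFD@M, 35.4, 55.3 and 35.5 CPM in OTUB1_KD, 5.68, 5.20 and 6.18 CPM in Blank and 5.09, 5.02 and 5.90 CPM in NC libraries. Ifih1 encodes MDA5, a sensor of long double-stranded RNA, and its Blank and NC libraries overlapped. Dhx58 was measured at 8.23, 8.18 and 9.30 CPM in SFD@M libraries, 13.8, 11.9 and 24.00 CPM in OTUB1_KD libraries, 2.48, 1.54 and 1.66 CPM in Blank libraries and 1.26, 1.08 and 1.37 CPM in NC libraries. Dhx58 encodes LGP2, a relative that modulates MDA5, and its Blank libraries lay above NC. For Ddx60 the levels were 15.3, 15.1 and 13.9 CPM in SFD@M, 17.4, 16.7 and 10.5 CPM in OTUB1_KD, 2.54, 2.89 and 2.97 CPM in Blank and 1.07, 1.32 and 0.954 CPM in NC. Ddx60, a helicase, had its Blank libraries above NC by more than its within-group spread, with a log2 fold change of 1.31 ± 0.22 (adjusted p = 1.34e-07). In SFD@M, Zbp1 had 17.7, 21.5 and 36.6 CPM, in OTUB1_KD 50.9, 58.9 and 51.1 CPM, in Blank 0.0592, 0.0591 and 0.0594 CPM and in NC 0, 0 and 0 CPM. Zbp1, a sensor of Z-form nucleic acid that can start cell death, was thus listed at 0 in NC and at 1 count in each Blank library. Over the group it had 2874 counts in OTUB1_KD against 0 in NC, at least 903-fold higher when set against a floor of 3 counts per group. In SFD@M against Blank it had 1300 against 3 counts, a ratio of 438 with a 95% counting interval of 150 to 2129. Trim25, a ubiquitin ligase that acts on the sensor RIG-I, ranged over 116 to 141 CPM in SFD@M, 117 to 134 CPM in OTUB1_KD, 116 to 119.8 CPM in Blank and 114 to 118 CPM in NC and was called in none of the comparisons.

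ISG15 is a ubiquitin-like protein that is attached to other proteins during an interferon response. Isg15 stood at 6.505, 10.5 and 17.02 CPM in SFD@M, 13.3, 14.99 and 25.9 CPM in OTUB1_KD, 8.52, 7.503 and 8.02 CPM in Blank and 4.02, 4.25 and 4.65 CPM in NC libraries. The Blank libraries of Isg15 lay above NC, and the OTUB1_KD libraries lay above both, while SFD@M overlapped Blank. Usp18 was measured at 21.99, 24.03 and 29.3 CPM in SFD@M libraries, 14.8, 29.6 and 26.9 CPM in OTUB1_KD libraries, 3.79, 2.30 and 3.56 CPM in Blank libraries and 2.14, 2.39 and 2.21 CPM in NC libraries. Usp18, which encodes the protease that removes ISG15 and damps the type I receptor, had overlapping Blank and NC libraries, yet passed the test (0.50 ± 0.18, adjusted p = 0.0116), a call lost without Blank replicate 1 or without Blank replicate 3. For Herc6 the levels were 27.6, 36.5 and 39.1 CPM in SFD@M, 52.98, 43.2 and 29.6 CPM in OTUB1_KD, 37.3, 37.3 and 38.6 CPM in Blank and 34.7, 35.6 and 36.1 CPM in NC. Herc6, the mouse ligase for ISG15, was called in none of the comparisons. For Isg15 the log2 fold change was 2.03 ± 0.31 in OTUB1_KD over NC (adjusted p = 0.00126), 0.51 ± 0.32 in SFD@M over Blank (adjusted p = 0.167) and 0.88 ± 0.12 in Blank over NC (adjusted p = 1.47e-09).

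The IFIT proteins bind viral RNA and its cap. Ifit1 stood at 15.8, 27.7 and 33.05 CPM in SFD@M, 20.2, 33.7 and 21.7 CPM in OTUB1_KD, 4.20, 4.61 and 4.63 CPM in Blank and 1.95, 2.39 and 2.38 CPM in NC libraries. Blank lay above NC for Ifit1, with a log2 fold change of 0.98 ± 0.16 (adjusted p = 1.71e-07). Ifit3 was measured at 91.1, 78.7 and 62.2 CPM in SFD@M libraries, 56.6, 112 and 94.5 CPM in OTUB1_KD libraries, 1.48, 1.48 and 1.31 CPM in Blank libraries and 1.38, 1.20 and 1.37 CPM in NC libraries. Ifit3 was near 1 CPM in Blank and NC, and the libraries of these groups overlapped. It was among the most changed members within the experiments, at 6.01 ± 0.33 in OTUB1_KD over NC and 5.76 ± 0.19 in SFD@M over Blank (adjusted p = 2.5e-05 and 9.11e-08). Ifit3b, a near copy of Ifit3 whose reads may be shared with it, had 12 counts over the Blank group and 11 over NC. Ifit3 and Ifit3b summed to 80.1 to 120.0 CPM in SFD@M, 70.9 to 144 CPM in OTUB1_KD, 1.46 to 1.74 CPM in Blank and 1.37 to 1.66 CPM in NC libraries. Ifit2 was called in none of the comparisons and stayed between 27.7 and 44.4 CPM in all 12 libraries.

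OAS enzymes make 2-5A, the messenger that activates RNase L. Oas2 stood at 15.3, 28.4 and 46.03 CPM in SFD@M, 40.9, 48.8 and 29.02 CPM in OTUB1_KD, 10.7, 11.5 and 12.3 CPM in Blank and 1.19, 1.14 and 1.55 CPM in NC libraries. Every Blank library of Oas2 lay far above every NC library, and this was the largest change of a member in Blank over NC (3.12 ± 0.15, adjusted p = 1.95e-31). Oas1a was measured at 8.86, 15.8 and 21.5 CPM in SFD@M libraries, 26.9, 25.8 and 34.2 CPM in OTUB1_KD libraries, 14.1, 12.5 and 14.7 CPM in Blank libraries and 6.91, 7.30 and 6.74 CPM in NC libraries. Oas1a was also higher in Blank than in NC (0.96 ± 0.10, adjusted p = 1.77e-14), and its SFD@M libraries overlapped Blank. For Oas3 the levels were 5.24, 10.5 and 19.6 CPM in SFD@M, 24.4, 12.9 and 18.4 CPM in OTUB1_KD, 6.09, 8.74 and 6.89 CPM in Blank and 9.86, 9.27 and 10.1 CPM in NC. Oas3 went the other way in Blank, at -0.44 ± 0.11 (adjusted p = 0.000183).
The OASL proteins resemble OAS enzymes, and mouse Oasl1 acts on Irf7 translation. In SFD@M, Oasl1 had 2.59, 3.80 and 6.49 CPM, in OTUB1_KD 12.1, 6.74 and 12.4 CPM, in Blank 7.75, 8.33 and 8.32 CPM and in NC 3.01, 3.77 and 2.92 CPM. Oasl1 was highest in OTUB1_KD and Blank and stood below Blank in SFD@M. Oasl2 stood at 77.3, 93.9 and 118 CPM in SFD@M, 131, 154 and 129 CPM in OTUB1_KD, 15.02, 14.6 and 15.1 CPM in Blank and 6.47, 7.06 and 5.54 CPM in NC libraries. Oasl2 was ordered OTUB1_KD, SFD@M, Blank and NC with no overlap between neighbours. The log2 fold change of Oasl1 was 1.65 ± 0.31 in OTUB1_KD over NC, -0.92 ± 0.30 in SFD@M over Blank and 1.31 ± 0.13 in Blank over NC (adjusted p = 0.00351, 0.0214 and 1.07e-14). The call in SFD@M over Blank was lost without SFD@M replicate 2, without Blank replicate 2 or without Blank replicate 3.

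Several effectors act on viral replication or on the cell's own metabolism. Cmpk2 stood at 20.03, 28.2 and 27.96 CPM in SFD@M, 23.4, 31.8 and 21.1 CPM in OTUB1_KD, 5.92, 5.55 and 5.23 CPM in Blank and 0.942, 1.32 and 1.25 CPM in NC libraries. Cmpk2, a mitochondrial nucleotide kinase, was clearly separated in all pairs but SFD@M and OTUB1_KD, and Blank over NC was 2.22 ± 0.18 (adjusted p = 1.08e-18). Rsad2 was measured at 4.20, 9.94 and 10.5 CPM in SFD@M libraries, 17.3, 13.3 and 10.2 CPM in OTUB1_KD libraries, 3.43, 3.19 and 3.27 CPM in Blank libraries and 2.32, 2.57 and 1.91 CPM in NC libraries. Rsad2 encodes viperin and is a neighbour of Cmpk2 on chromosome 12, and it changed much less in Blank over NC (0.52 ± 0.18, adjusted p = 0.00606), with the call lost without NC replicate 3. For Samhd1 the levels were 351, 281 and 338 CPM in SFD@M, 319.6, 319.8 and 375 CPM in OTUB1_KD, 122, 122 and 122 CPM in Blank and 92.8, 87.98 and 91.7 CPM in NC. Samhd1, a dNTP hydrolase, was higher in Blank than in NC by 0.41 ± 0.03 (adjusted p = 4.6e-19), and the SFD@M and OTUB1_KD libraries lay above both.
In SFD@M, Eif2ak2 had 50.7, 63.96 and 67.7 CPM, in OTUB1_KD 98.5, 66.1 and 68.6 CPM, in Blank 135, 134 and 128 CPM and in NC 109.9, 109 and 109.6 CPM. Eif2ak2 encodes PKR, the kinase that stops translation when it binds double-stranded RNA, and SFD@M and OTUB1_KD lay below Blank and NC. It was -0.53 ± 0.18 in OTUB1_KD over NC (adjusted p = 0.0384), a call lost without any 1 of the NC libraries or without OTUB1_KD replicate 2 or 3, and -1.12 ± 0.10 in SFD@M over Blank (adjusted p = 2.03e-05). In Blank over NC it was 0.26 ± 0.03 (adjusted p = 1.73e-11). Bst2 stood at 31.9, 59.9 and 54.6 CPM in SFD@M, 104, 73.6 and 194 CPM in OTUB1_KD, 63.5, 61.7 and 67.4 CPM in Blank and 58.04, 59.5 and 60.2 CPM in NC libraries. Bst2 spread widely in OTUB1_KD, and its SFD@M libraries lay below those of Blank without a call. Xaf1 was measured at 29.4, 37.5 and 44.1 CPM in SFD@M libraries, 35.9, 53.2 and 46.99 CPM in OTUB1_KD libraries, 5.86, 5.97 and 5.52 CPM in Blank libraries and 4.02, 3.59 and 3.99 CPM in NC libraries. Xaf1, which promotes apoptosis, had SFD@M and OTUB1_KD libraries above Blank and Blank above NC, with 0.56 ± 0.13 in Blank over NC (adjusted p = 0.000139). Isg20, an RNA exonuclease, ranged over 15.4 to 31.4 CPM in SFD@M, 33.3 to 46.7 CPM in OTUB1_KD, 8.02 to 9.04 CPM in Blank and 9.21 to 10.05 CPM in NC.

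PARP9 and DTX3L form a complex that modifies histones, and PARP12 and PARP14 are related ADP-ribosyltransferases. Parp14 stood at 95.4, 123 and 129.9 CPM in SFD@M, 133, 149.6 and 145 CPM in OTUB1_KD, 14.7, 15.2 and 14.4 CPM in Blank and 7.54, 9.09 and 8.35 CPM in NC libraries. Parp14 had no overlap between any of the 4 groups. Parp9 was measured at 55.95, 67.8 and 81.5 CPM in SFD@M libraries, 97.1, 88.6 and 81.4 CPM in OTUB1_KD libraries, 23.2, 26.2 and 24.4 CPM in Blank libraries and 17.6, 16.3 and 14.7 CPM in NC libraries. For Dtx3l the levels were 42.4, 51.3 and 59.8 CPM in SFD@M, 81.3, 65.7 and 48.8 CPM in OTUB1_KD, 21.2, 20.2 and 21.7 CPM in Blank and 16.1, 15.2 and 15.3 CPM in NC. Parp9 and Dtx3l, which lie side by side in the genome, each stood higher in SFD@M and OTUB1_KD than in Blank, and higher in Blank than in NC. Their expected counts were not whole, as in SFD@M replicate 2 at 1159.44 and 877.56. Reads may therefore be shared between Parp9 and Dtx3l, and their levels are not separate measurements. In SFD@M, Parp12 had 72.8, 78.8 and 76.3 CPM, in OTUB1_KD 102, 89.7 and 117 CPM, in Blank 56.3, 55.1 and 54.9 CPM and in NC 37.6, 36.1 and 39.5 CPM. All 4 genes were called higher in every pair within an experiment and in Blank over NC, where 37% of all genes tested were higher and the log2 fold changes of these 4 were 0.42 to 0.81, with Parp14 the largest at 0.81 ± 0.09 (adjusted p = 1.75e-12). In that pair Dtx3l lost its call with all 12 libraries in 1 fit, and Dtx3l, Parp9 and Parp12 lost theirs in a test against a fold of 1.5.

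The remaining members have less certain roles. Ifi44 stood at 7.02, 16.6 and 15.6 CPM in SFD@M, 15.3, 27.5 and 21.4 CPM in OTUB1_KD, 5.09, 5.14 and 5.23 CPM in Blank and 0.691, 1.02 and 0.775 CPM in NC libraries. Ifi44 had every Blank library above every NC library by several fold, at 2.61 ± 0.20 (adjusted p = 4.8e-20). Rtp4 was measured at 19.6, 37.9 and 42.2 CPM in SFD@M libraries, 32.2, 49.99 and 34.3 CPM in OTUB1_KD libraries, 4.91, 5.20 and 5.94 CPM in Blank libraries and 2.26, 2.21 and 2.21 CPM in NC libraries. Rtp4, a receptor transporter protein, was at 1.24 ± 0.16 in Blank over NC (adjusted p = 5.74e-11). For Apol9a the levels were 5.58, 4.33 and 10.4 CPM in SFD@M, 21.05, 16.6 and 28.1 CPM in OTUB1_KD, 14.02, 12.9 and 14.4 CPM in Blank and 5.46, 7.42 and 8.47 CPM in NC. In SFD@M, Apol9b had 6.27, 7.48 and 11.1 CPM, in OTUB1_KD 21.7, 21.7 and 26.9 CPM, in Blank 9.76, 10.04 and 10.2 CPM and in NC 4.02, 4.07 and 3.58 CPM. Apol9a and Apol9b are near copies whose reads may be shared, and in both the OTUB1_KD libraries were highest. Their sum was 11.9 to 21.6 CPM in SFD@M, 39.8 to 54.6 CPM in OTUB1_KD, 22.5 to 24.2 CPM in Blank and 9.40 to 12.0 CPM in NC. In SFD@M, Apol9a stood below Blank (-1.02 ± 0.29, adjusted p = 0.012). Ifi35 ranged over 35.3 to 46.7 CPM in SFD@M, 33.1 to 67.9 CPM in OTUB1_KD, 13.7 to 14.1 CPM in Blank and 12.6 to 13.3 CPM in NC.

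**Figure D2:**
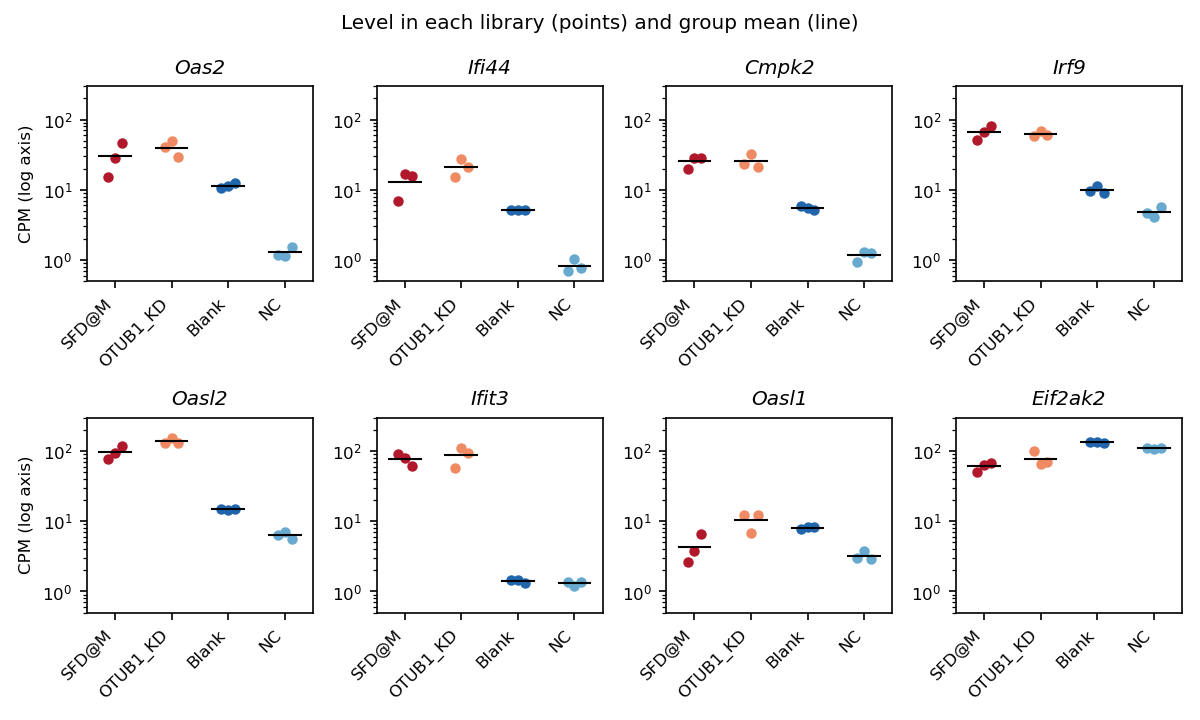
TMM-scaled CPM of 8 members in each of 12 libraries, with points for libraries and a line for the mean of each group. Oas2, Ifi44 and Cmpk2 show Blank points well above NC points, Ifit3 shows both near 1 CPM, and Eif2ak2 is highest in Blank.

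Blank was set against NC to compare the control tumours of the experiments, both almost free of leukocyte and lung transcripts. Oas2, Ifi44 and Cmpk2 were higher in Blank by log2 fold changes above 2, and most other members were modestly higher. Of the 35 members tested, 25 were higher and 2, Irf1 and Oas3, were lower, where 37% of the 12087 genes tested were higher and 37.2% lower. The median log2 fold change was 0.54 over the members and -0.0003 over all genes. At least 2-fold higher were 9 members (Oas2, Ifi44, Cmpk2, Apol9b, Oasl1, Ddx60, Rtp4, Oasl2 and Irf9), where 1.45% of genes were. The members' libraries did not overlap in 27 cases with Blank above and 3 with Blank below, against 39.1% and 36.3% of genes.
Zbp1 and Ifit3b did not pass the filter on low counts in this pair. With all 12 libraries in 1 fit, which takes its spread from all groups, 13 members were higher and 1 lower, against 4.97% and 12.7% of genes. Of the 27 calls, 13 were lost in that fit (Ifit1, Isg15, Oas3, Rsad2, Usp18, Stat2, Dhx58, Dtx3l, Eif2ak2, Bst2, Xaf1, Samhd1 and Apol9a). With a test against a fold of 1.5, chosen after the data were seen, 14 were higher and 0 lower, against 3.71% and 9.76% of genes, and 13 calls were lost (Oas3, Rsad2, Usp18, Irf1, Stat2, Dhx58, Parp9, Parp12, Dtx3l, Eif2ak2, Bst2, Xaf1 and Samhd1). Dhx58 lost its call without Blank replicate 1 or NC replicate 2, and Bst2 without Blank replicate 3, NC replicate 1 or NC replicate 2. The sum of the 5 pan-leukocyte markers was lower in Blank, at 0.814 to 1.22 CPM, against 2.91 to 3.32 CPM in NC. Most of that difference was in Laptm5, with 12 counts over the Blank group and 83 over NC. Cd53 had 23 and 45 counts, Coro1a 20 and 21, Cd52 0 and 5, and Ptprc 1 and 3, all near the floor. The pair crosses experiments, and experiment, lentivirus and treatment with saline cannot be told apart. Of the members at least 2-fold higher with a promoter window, 2 of 7 held the ISRE core, as did 7 of 12 that were higher by less, 1 of 2 that were lower and 1 of 8 that were not called.

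**Figure D3:**
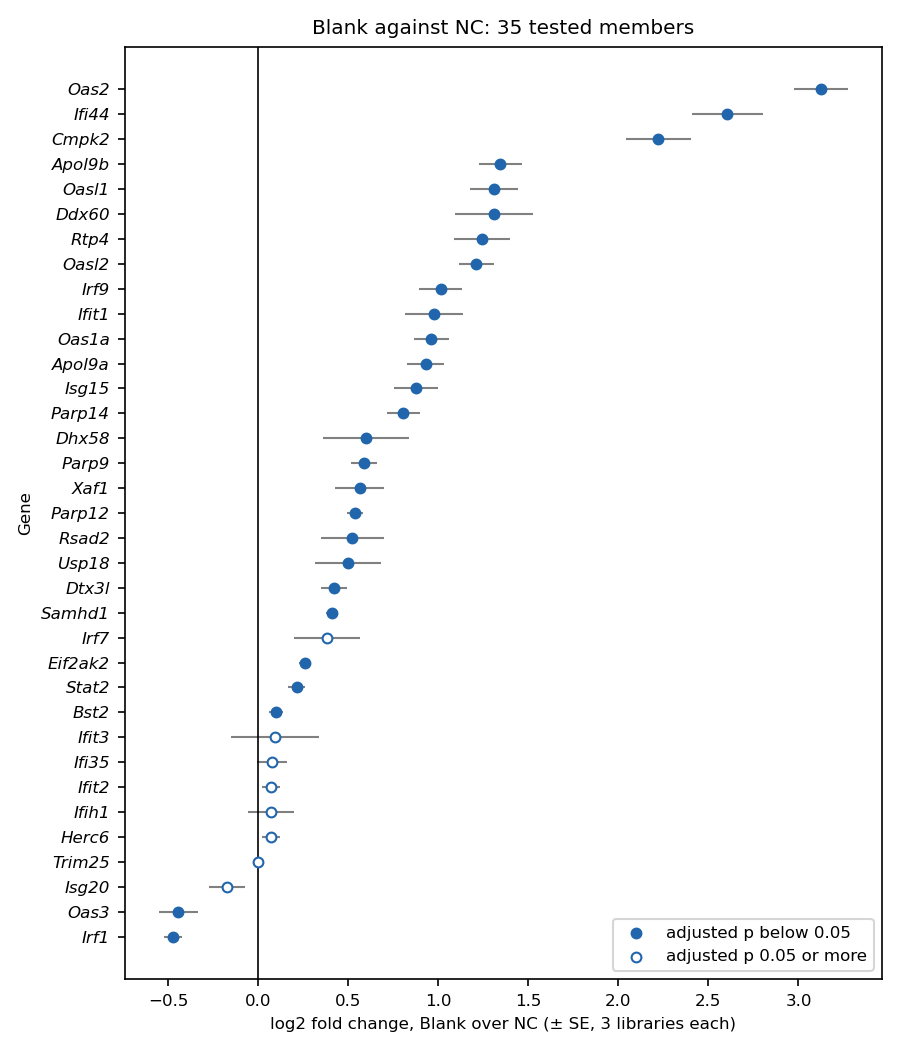
Log2 fold change of Blank over NC, with its SE, for the 35 members tested, ordered by size. Values run from -0.47 for Irf1 to 3.12 for Oas2, and 25 members called higher stand to the right of 0.

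OTUB1_KD was set against NC to show what differed with the knockdown. Zbp1, Ifit3b and Ifit3 stood furthest above NC, and Oas2, Irf7, Ifi44, Oasl2, Cmpk2, Rtp4 and Parp14 were each higher by a log2 fold change above 4. Of 37 members tested, 33 were higher and 1 (Eif2ak2) was lower, where 39.9% of 14785 genes were higher and 25.8% lower. The members called at least 2-fold higher numbered 32, against 33% of genes. The median log2 fold change was 2.54 over the members and 0.16 over all genes. Ifit2, Trim25 and Herc6 were not called, at -0.02 ± 0.20, 0.07 ± 0.13 and 0.21 ± 0.22. Oas3 (0.89 ± 0.25, adjusted p = 0.0186) and Bst2 (1.03 ± 0.34, adjusted p = 0.0327) lost their calls without any 1 of the NC libraries. Pan-leukocyte markers summed to 839 to 939 CPM in OTUB1_KD against 2.91 to 3.32 CPM in NC. Alveolar markers summed to 10343 to 25601 CPM against 15.3 to 18.7 CPM, and the part of either set in the result was not tested.

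SFD@M was set against Blank to show what differed with the treatment. Here too Zbp1, Ifit3b and Ifit3 stood furthest above, followed by Irf7 and Ifih1. Of 37 members tested, 26 were higher and 3 (Eif2ak2, Apol9a and Oasl1) lower, where 49.5% of 14824 genes were higher and 38.7% lower. The members called at least 2-fold higher numbered 24, against 36.9% of genes. The median log2 fold change was 1.45 over the members and 0.23 over all genes. Isg15, Oas1a, Oas3, Bst2, Herc6, Trim25, Ifit2 and Apol9b were not called. Within SFD@M, replicate 1 was lowest for 29 of the 37 members and replicate 3 was highest for 27, by CPM of library totals. The same count over all genes was not made, so this order cannot be read as particular to the members. Pan-leukocyte markers summed to 659 to 819 CPM in SFD@M against 0.814 to 1.22 CPM in Blank. Alveolar markers summed to 22985 to 25360 CPM against 11.04 to 11.65 CPM, and the part of either set in the result was not tested.

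**Figure D4:**
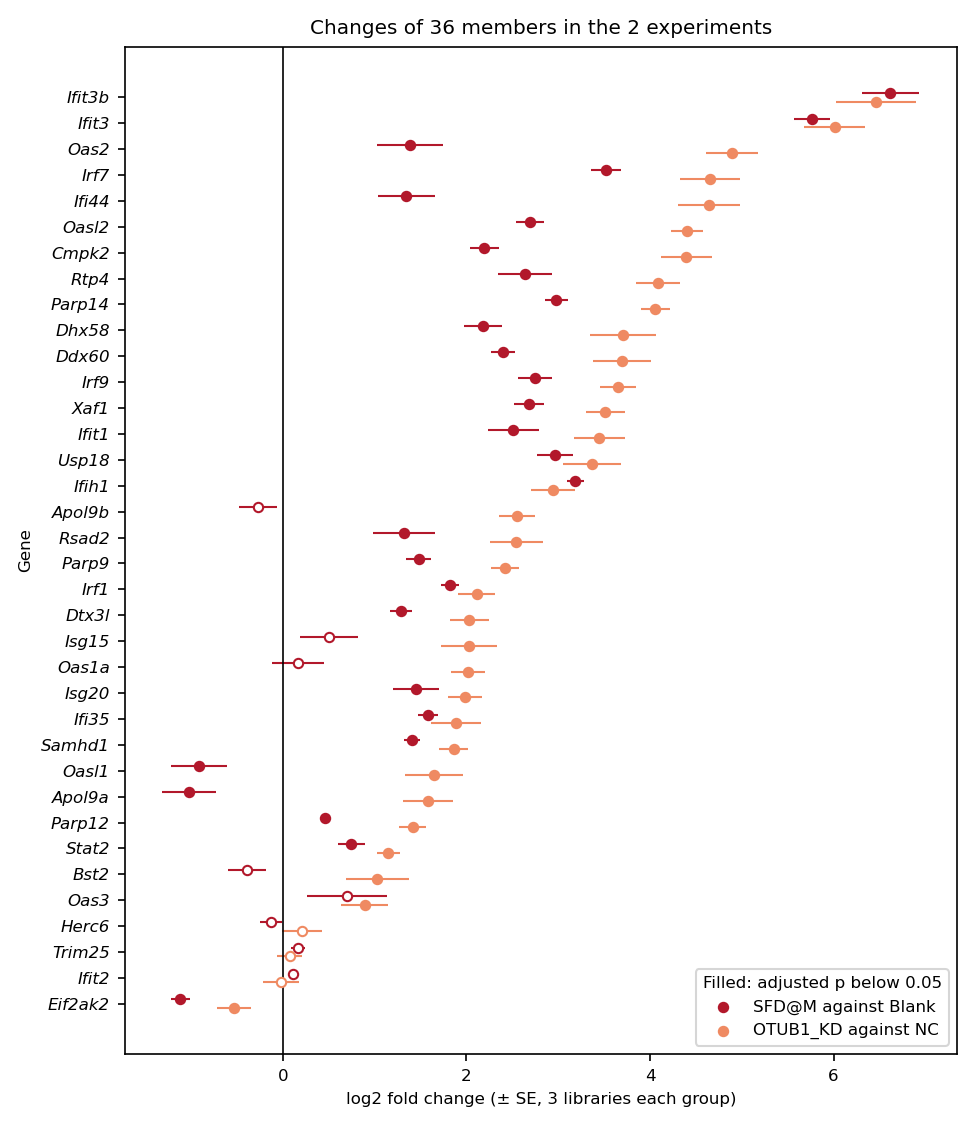
Log2 fold changes with their SE for 36 members in SFD@M over Blank and in OTUB1_KD over NC, with filled points for adjusted p below 0.05. Zbp1 is left out because NC held 0 counts of it, and for most members the value of SFD@M over Blank lies left of that of OTUB1_KD over NC.

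The log2 fold change of SFD@M over Blank was called below that of OTUB1_KD over NC for 19 of 37 members and called above it for 0. The calls came from an interaction term over all 12 libraries, and the values of the 37 ran from -4.25 to 0.28. Of 15304 genes, 10.8% were called below and 12.4% above. Among the 19, the largest differences were those of Oas2 (-3.47 ± 0.50, adjusted p = 0.00164), Ifi44 (-3.26 ± 0.47, adjusted p = 0.00171) and Apol9b (-2.80 ± 0.29, adjusted p = 0.000298), on the log2 scale. The count was 12 without NC replicate 1 or 2 and up to 21 without another library. Of 12 fits that each left out 1 library, the call was lost in 10 for Bst2, Irf7 and Xaf1, 9 for Isg15, 6 for Dhx58 and Irf9 and 4 for Rtp4. The contrast includes the Blank and NC libraries that were compared with each other above.

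SFD@M set directly against OTUB1_KD gave 0 calls among the 37 members by the quasi-likelihood test, where 0.0134% of 14914 genes were higher and 0% lower. At an unadjusted p below 0.05 there were 12 members, against 19.9% of genes, and DESeq2 called 6 lower, against 6.01% of genes. The libraries of 12 members, among them Apol9a, Apol9b, Zbp1, Irf1 and Oasl2, lay wholly below in SFD@M and those of 0 lay wholly above, against 15.4% and 13.3% of genes. Without OTUB1_KD replicate 2, 5 members were lower, against 8.80% of 15133 genes. With all 12 libraries in 1 fit, 12 were lower, against 12.2% of genes.

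Beside the members, the rest of the pathway was read from lists of ligands, receptors, signalling genes, sensors and inhibitors. Ifng, interferon gamma, had 28 counts in SFD@M against 0 in Blank, at least 9.44-fold higher, and 149 counts in OTUB1_KD against 0 in NC, at least 46.8-fold higher. Of 21 interferon ligands listed, only 6 were found by symbol. Ifna5 was the only interferon alpha gene among them, and no type III interferon was, so the ligands not found cannot be judged. Among the type I interferons measured, Ifnb1 had 0 counts in SFD@M, 0 in OTUB1_KD, 2 in Blank and 2 in NC, summed over the 3 libraries. Ifnz had the most of them, at 4.81 counts in SFD@M, 5.68 in OTUB1_KD, 7.63 in Blank and 12.8 in NC, and Ifna5, Ifne and Ifnk had 2 counts or fewer over any group. The counts of these lists stand beside a background of 39.9% of genes higher and 25.8% lower in OTUB1_KD over NC, 49.5% and 38.7% in SFD@M over Blank, and 37% and 37.2% in Blank over NC. All 6 receptor genes were higher in OTUB1_KD than in NC and in SFD@M than in Blank. In Blank against NC 1 of the 5 receptors tested was higher, Il10rb, and 3 were lower, with Ifngr2 at -0.82 ± 0.06 (adjusted p = 2.93e-22).
Of 7 JAK and IRF genes that are no members (Jak1, Jak2, Tyk2, Irf2, Irf3, Irf5 and Irf8), 3 were higher and 1 lower in OTUB1_KD over NC, 6 higher and 1 lower in SFD@M over Blank, and 0 higher and 5 lower in Blank over NC. Their median log2 fold change in Blank over NC was -0.47, where that of the members was 0.54. Irf8, a factor of myeloid cells, was lowest there (-1.62 ± 0.24, adjusted p = 6.66e-09). In SFD@M over Blank, Jak1, a kinase bound to interferon receptors, was lower (-0.64 ± 0.07, adjusted p = 6.33e-05), and likewise in OTUB1_KD over NC (-0.65 ± 0.17, adjusted p = 0.0121). Of 16 nucleic acid sensing genes 6 were higher and 5 lower in Blank than in NC, among them Tlr3 at 0.90 ± 0.14 and Ticam1, its adaptor, at -1.39 ± 0.07 (adjusted p = 6.59e-08 and 5.17e-31). These shares are close to those of all genes. The same list had 9 higher and 3 lower in OTUB1_KD over NC, and 7 higher and 6 lower in SFD@M over Blank. Of 12 negative regulators, Usp18 among them, 9 were higher and 1 lower in OTUB1_KD over NC, 8 higher and 3 lower in SFD@M over Blank, and 7 higher and 2 lower in Blank over NC. Of 6 genes of ISG15 conjugation, 4 of them members, 4 were higher in OTUB1_KD over NC and 3 in SFD@M over Blank, with 0 lower in either, and 3 were higher and 1 (Ube2l6) lower in Blank over NC. Socs1 was measured at 2.13, 2.22 and 1.93 CPM in SFD@M libraries, 12.1, 6.30 and 16.7 CPM in OTUB1_KD libraries, 6.57, 6.91 and 7.72 CPM in Blank libraries and 5.02, 6.10 and 5.49 CPM in NC libraries. Socs1, a feedback inhibitor of JAK kinases, stood below Blank in SFD@M (-1.75 ± 0.16, adjusted p = 2.25e-05).

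The mix of transcripts was computed for all members and looked at by library for Ifit2, Ifit3, Rtp4 and Samhd1. Rtp4 and Samhd1 were chosen for description after their values were seen, and no test was made. Shares of the Ifit3 transcript NM_010501 were unstable, at 0 to 100% in Blank and 0 to 38.1% in NC, on at most 22 counts per library. Shares of the Ifit2 transcript NM_008332 were 72.7 to 81.2% in Blank, 88.5 to 98.3% in NC and 34.9 to 86.9% in SFD@M. For Rtp4, the transcript XM_030249254 made up 53.9 to 70.1% of the gene's TPM in Blank, against 0 to 20.2% in NC, and had 39.5 to 58.2 counts per library in Blank, against 0 to 4.74 counts in NC. Its transcript XM_030249255 had 21.7 to 23.1 counts in Blank and 27.9 to 30.0 counts in NC, so the counts gained in Blank were mostly assigned to the first of them. For Samhd1, NM_018851 made up 76.3 to 80.1% in Blank and 49.5 to 58.3% in NC, and NM_001139520 made up 18.1 to 20.5% in Blank and 36.9 to 46.7% in NC. The shares do not overlap between Blank and NC for any of these 4 transcripts of Rtp4 and Samhd1. The same count over all transcripts was not made, so this cannot be read as particular to them. Another Rtp4 transcript, NM_023386, did overlap, at 7.45 to 8.78% in Blank and 0 to 7.91% in NC. The Samhd1 transcript NM_001370610 held 1.83 to 3.28% in Blank and 2.91 to 4.76% in NC, so the larger Samhd1 shares move against each other. All shares are estimates that divide shared reads.

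**Figure D5:**
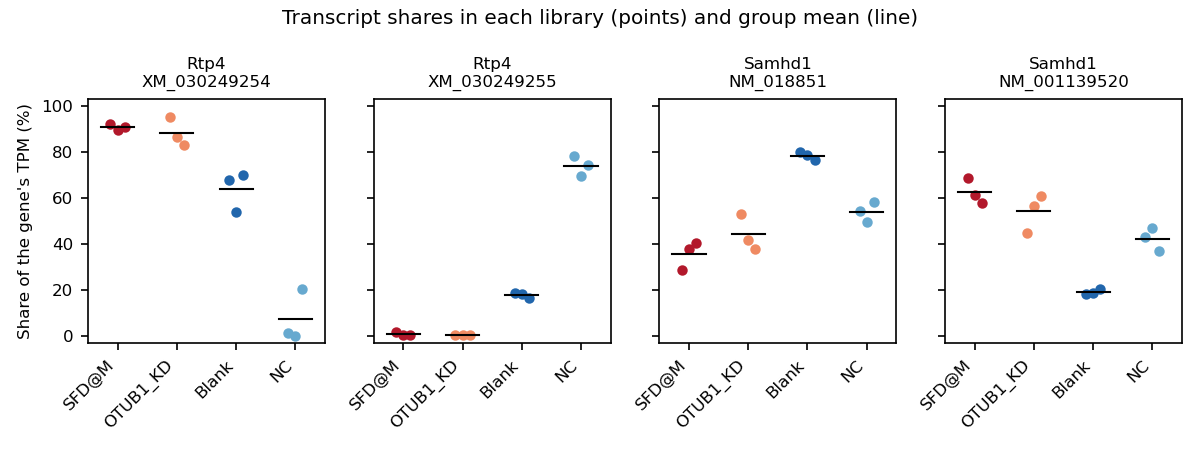
Share of the gene's TPM, in percent, held by each of 4 transcripts of Rtp4 and Samhd1 in 12 libraries, with points for libraries and a line for the mean of each group. Blank points lie above NC points for XM_030249254 and NM_018851 and below them for XM_030249255 and NM_001139520.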

How the data were processed

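Messenger RNA of 12 mouse libraries in 4 groups of 3 was measured, with groups taken from titles and treatment labels. The authors deposited 1 table of 70659 transcripts. Per the file headers it holds expected counts, TPM, FPKM and normalized read counts, a signal that proved to be each expected count rounded up and multiplied by 1 factor per library (whole within 0.001 for 100% of values). GRCm39, RSEM 1.3.1, Bowtie2 and DESeq2 1.4.5 are named, without their roles, per the submitters' processing notes. No source used here gives the strand handling, so antisense partners and near copies cannot be told apart.

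Deposited expected counts were summed per gene and rounded. Of 19212 gene identifiers 19155 matched a RefSeq symbol (GRCm38.p6, used for names and for promoter sequences with their coordinates in that build); the 57 others held at most 0.342% of counts. Pairs of groups had a separate fit each (R 4.3.3, edgeR 4.0.16, filterByExpr, TMM, robust quasi-likelihood test), with Benjamini-Hochberg adjusted p below 0.05 over all genes as a call; a 4-group fit gave the interaction. The SE is the log2 fold change divided by the square root of F. Levels are CPM scaled with TMM factors of all 12 libraries, or TPM, which was also tested on a log2 scale. Markers, floors, sums of near copies and the order of libraries within a group use CPM of library totals. A count of 0 was set at a floor of 3 counts per group; floors and intervals (exact, 95%) cover counting error only. The tests were tried on simulated data.

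Members, lists and tests were chosen with earlier results of these data known. Named genes are all members, with the value of every library for fixed members of each role and those called in Blank against NC; other pathway genes are named from the lists where called in that pair or at a list's end. One signalling gene of these lists is not reported here, and its list is counted without it. Alternatives were RLE and library totals, 2 other filters, DESeq2 1.42.0, limma 3.58.1 on log2 TPM plus 1 or 0.1, recovered reads, 1 fit of all libraries, a replicate block, leaving out each library and, added after the data were seen, a test against a fold of 1.5.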

Additional observations from a re-analysis of the deposited data

Results flagged for a closer look

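The change of SFD@M over Blank differed from that of OTUB1_KD over NC in 19 of the 37 members, by the interaction term of edgeR's quasi-likelihood test over all 12 libraries, where 10.8% of 15304 genes were lower and 12.4% higher. Values below are the log2 fold change of SFD@M over Blank minus that of OTUB1_KD over NC, and all 19 were below 0. Among the OAS genes these were Oas2 (-3.47), Oasl1 (-2.54), Oas1a (-1.82) and Oasl2 (-1.68). Among the transcription factors they were Irf7 (-1.10) and Irf9 (-0.87), and among the sensors Dhx58 (-1.498) and Ddx60 (-1.27). The ISG15 system gave Isg15 (-1.497). The effectors gave Cmpk2 (-2.17), Bst2 (-1.40) and Xaf1 (-0.80), and the PARP genes Parp14 (-1.05), Parp12 (-0.93) and Parp9 (-0.91). The remaining members were Ifi44 (-3.26), Apol9b (-2.80), Apol9a (-2.58) and Rtp4 (-1.41). With 1 library left out, 12 fits in all, the calls of Bst2, Irf7 and Xaf1 were lost in 10, that of Isg15 in 9, those of Dhx58 and Irf9 in 6 and that of Rtp4 in 4. The contrast is also that of SFD@M over OTUB1_KD minus that of Blank over NC, so differences between Blank and NC enter it. In Blank over NC, the log2 fold change was 2.22 for Cmpk2, 3.12 for Oas2 and 0.93 for Apol9a. Set directly against OTUB1_KD, SFD@M had 0 members called by the quasi-likelihood test. Makeup, experiment and lentivirus move with the values of the contrast, and their part in them was not tested.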

How the results depend on the processing

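Over 3259 values of single members under the alternatives, 3013 kept their direction and side of the threshold, 122 lost and 70 gained a call, and 54 changed sign, all of members not called in the comparison concerned. Counts moved by over 1.5 times as follows. In OTUB1_KD against NC the 1 lower member became 0 with library totals and with the test against a fold of 1.5, and 0 to 1 with a library left out. In SFD@M against Blank the 3 lower became 6 with limma at either pseudocount and 1 with the test against a fold of 1.5. In Blank against NC 13 were higher and 1 lower with all 12 libraries in 1 fit, and 14 and 0 with the test against a fold of 1.5. In SFD@M against OTUB1_KD the lower members were 6 with DESeq2, 12 with all libraries in 1 fit and 0 to 5 with a library left out. In the difference between the changes 12 to 21 were lower and 0 to 1 higher with a library left out. Same-numbered replicates correlated between -0.25 and 0.0782, which shows no pairing of the samples by number. With 3 libraries per group this cannot exclude a pairing. A replicate block left every count as it was (25 and 2, 33 and 1, 26 and 3, 0 and 0, and 0 higher and 19 lower).

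Sign changes in OTUB1_KD over NC were Ifit2 (0.0533 with library totals, -0.20 to 0.14 with a library left out), Trim25 (-0.0669 and -0.0689 with limma at a pseudocount of 1 and 0.1) and Herc6 (-0.0064 to 0.40). In SFD@M over Blank, limma with a pseudocount of 1 and of 0.1 gave -0.14 and -0.15 for Ifit2, -0.10 and -0.11 for Trim25, and -0.24 and -0.26 for Oas1a; with a library left out Oas1a ran from -0.15 to 0.45 and Herc6 from -0.22 to 0.0176. In Blank over NC Trim25 was -0.000372 with RLE, -0.000396 with DESeq2, -0.00754 with the filter of 1 CPM, -0.0495 in 1 fit and -0.0126 to 0.0136 with a library left out. In SFD@M over OTUB1_KD Cmpk2 was -0.0115 with library totals and -0.036 and -0.0393 with limma, Ifit1 -0.0434 and -0.0494 with limma and -0.00505 with the replicate block, and Ddx60 0.0254 with that block. With a library left out the ranges there were -0.11 to 0.18 (Cmpk2), -0.20 to 0.12 (Ddx60), -0.46 to 0.0695 (Ifi35), -0.19 to 0.27 (Ifit1), -0.41 to 0.0187 (Ifit3), -0.0215 to 0.46 (Ifit3b), -0.0635 to 0.24 (Irf9), -0.42 to 0.0469 (Rtp4), -0.13 to 0.0227 (Samhd1) and -0.17 to 0.25 (Usp18). In the difference between the changes Trim25 was -0.0362 and -0.0372 with limma, Ifit3b -0.0206 with recovered reads and -0.0755 to 0.44 with a library left out, Ifi35 -0.49 to 0.0515 and Oas3 -0.74 to 0.19. Apart from fewer samples or a stricter test, the cause was not tested.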
